A study of Homo sapiens with 48 samples.

Results

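GAS5, ZFAS1, SNHG1, SNHG5, SNHG8, SNHG12, SNHG15, SNHG16, SNHG17 and SNHG29 are noncoding genes whose introns carry small nucleolar RNAs (snoRNAs). They were taken by name, and all 10 were found by Ensembl identifier among the 14685 genes counted at each time point. All 10 passed the filter on low counts, which removed 0 genes. The cells were HEK293T, a human embryonic kidney line, transfected with a plasmid for NCBP1 fused to the self-labelling Halo protein, so every group carried ectopic NCBP1. In the T-REX arm a photocaged precursor of 4-hydroxynonenal (Ht-PreHNE), a lipid-derived electrophile, was bound to Halo, unbound probe was washed out, and light released the electrophile next to NCBP1. The controls were probe without light (probe alone), vehicle without light (DMSO) and light alone, which the labels mark UV. The methods list the probe for the light alone arm too, so what its cells received is not settled here. RNA was taken 3, 6 or 12 h later, from 4 biological replicates of each, which gives 48 libraries. Total counts lay between 23952455 and 37099535 per library. Of the markers expected in this line, IRS4 (366.5 to 727.3 CPM, read counts scaled to a common library size), LIN28B, INA and NEFM were listed and PAX2 was not, and of the markers of other cells PTPRC, ALB and PECAM1 were not listed while COL1A1 lay between 2.13 and 6.07 CPM.

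A snoRNA host gene makes a spliced RNA and, from its excised introns, snoRNAs that guide modification of ribosomal and other RNAs. The spliced RNAs of noncoding hosts carry short open reading frames, are loaded onto ribosomes and are known targets of nonsense-mediated decay, a pathway that needs translation, so they accumulate when translation or decay is blocked. Many of them begin with a C followed by a run of pyrimidines, the terminal oligopyrimidine (TOP) start that ribosomal protein mRNAs share. NCBP1 is the larger of the proteins that form the cap-binding complex of the nucleus, which sits on the cap of new RNAs and takes part in their splicing, export and decay. The comparison of T-REX with its controls therefore asks whether modifying NCBP1 with the electrophile changed the level of host RNAs.

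RefSeq gave a promoter entry for 9 of the 10 genes (build GRCh38.p14). The windows of 30 bases printed here run from 10 bases before the annotated start to base 20 of the transcript, on the gene's own strand. They are those of GAS5, ZFAS1, SNHG16 and SNHG17, whose RNA fell between 3 and 12 h in every arm, and of SNHG8 and SNHG29, whose RNA passed the test in no arm between those times. Capitals mark the longest run that starts with C and continues with at least 4 bases that are each C or T.
GAS5, chr1:173869026-173869055, minus strand: tcatgaattcagatgtgtttattttggagc
ZFAS1, chr20:49278632-49278661, plus strand: gccattcgttCTTTCgcgtctgcggtgccc
SNHG16, chr17:76557754-76557783, plus strand: gggcggtctcgcgttCTTTTCgaggtcggc
SNHG17, chr20:38435309-38435338, minus strand: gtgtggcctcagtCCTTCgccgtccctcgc
SNHG8, chr4:118278752-118278781, plus strand: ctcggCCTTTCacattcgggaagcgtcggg
SNHG29, chr17:16438977-16439006, plus strand: CCTTTTgtgaggattgggatattccgactc
Such a run was in this window for 7 of the 9 genes, against 38.4% of 35116 RefSeq promoters, and the windows of GAS5 and SNHG1 held none. Only 1 entry per host gene was used, while the share counts every entry. Any other annotated start was not searched, so a TOP start of GAS5 or SNHG1 elsewhere was not tested. The run of ZFAS1 and that of SNHG5 began exactly at the annotated start. CACGTG, the E-box bound by MYC and related factors, and TGATGCAA, bound by ATF4 and related factors, were searched on both strands of the whole 300-base promoters. CACGTG was in 7.26% of all promoters and TGATGCAA in 0.866%, and neither was in any of the 9. These are matches of letters in a fixed window and not measured sites.

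The host RNAs spanned a wide range of levels. Per kilobase of exon in GENCODE 29, averaged over the 48 libraries, SNHG16, which hosts the SNORD1 snoRNAs, was highest at 51.5 ± 6.38 CPM per kilobase (SD, n = 48), followed by SNHG29 at 47.8 ± 3.23 and SNHG1 at 39.1 ± 3.44. GAS5, host of a large cluster of box C/D snoRNAs, stood at 28.4 ± 3.08 and SNHG8, host of SNORA24, at 28.3 ± 4.38. The length used joins all annotated exons of a gene, 3631 bases for GAS5 and 923 for SNHG8, and is not that of 1 transcript. Their means before this division were 103.2 and 26.16 CPM, so the order of the genes depends on it. SNHG17, SNHG5 and SNHG15 lay close together at 15.2 ± 1.89, 13.2 ± 1.47 and 13.0 ± 1.69. ZFAS1, host of the SNORD12 family, followed at 5.82 ± 0.98, and SNHG12 was lowest at 1.22 ± 0.247. The ranges over libraries of neighbours in this order overlapped except between SNHG8 and SNHG17, between SNHG15 and ZFAS1, and between ZFAS1 and SNHG12. Of the 41 snoRNAs listed as encoded in the introns of these genes, only SNORA71B of SNHG17 was in the count tables, so whether the snoRNAs moved with their hosts was not tested. In all values per gene below, fewer cells holding an RNA and less of it per cell cannot be told apart.

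**Figure D1:**
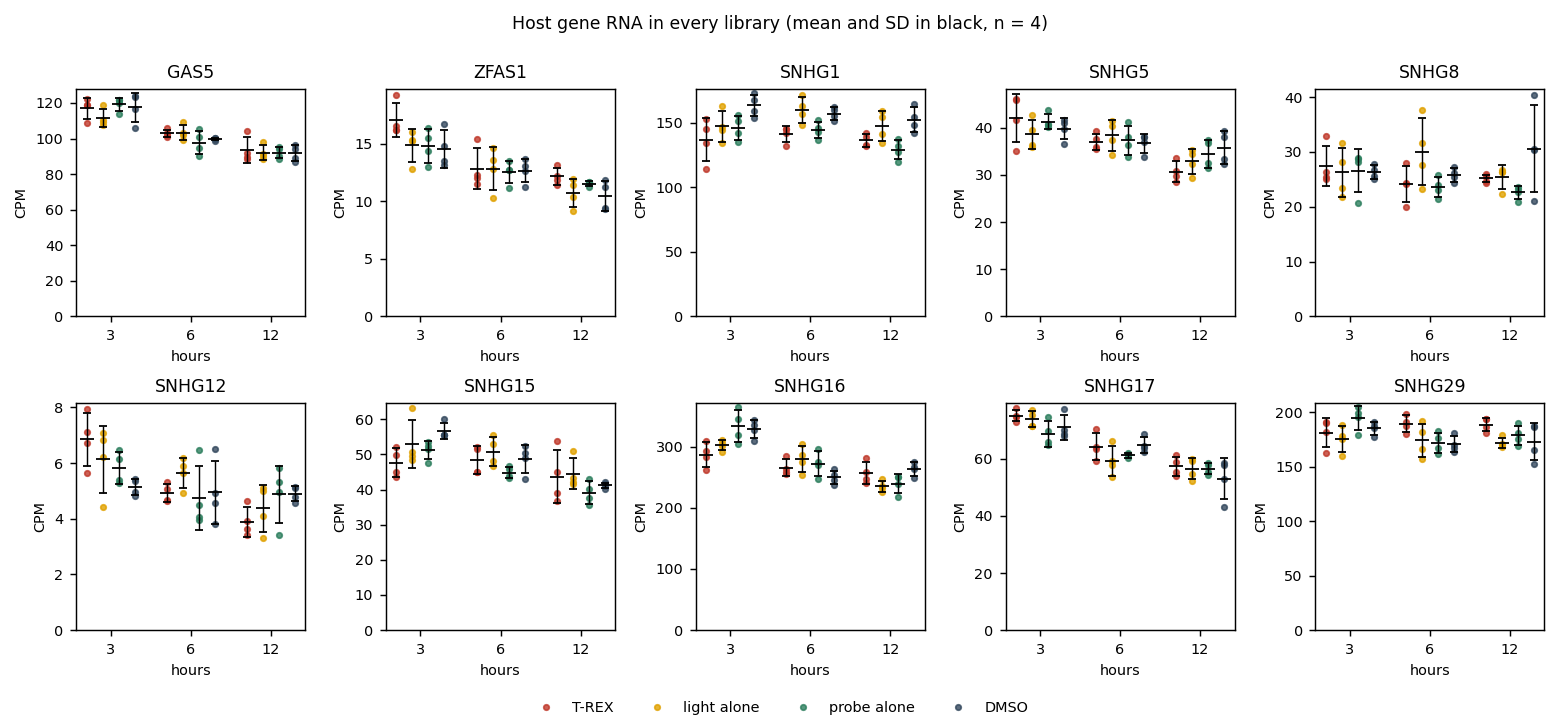
Normalised read counts (CPM, vertical axes from 0) of the 10 host genes in every library, by hours after the reaction (horizontal axis) and arm (colour), with the mean and SD of each 4 replicates in black. At a given time the arms lie close together, while GAS5, ZFAS1, SNHG16 and SNHG17 are lower at 12 h than at 3 h in all 4 arms.

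T-REX left the host RNAs close to their level in the controls. Of the 90 comparisons of T-REX with a control (10 genes, 3 controls, 3 time points), 1 passed edgeR's quasi-likelihood test at an adjusted p of at most 0.05 (Benjamini-Hochberg over all 14685 genes): SNHG16 was lower than in DMSO at 3 h. The 3 comparisons at a time point share the T-REX libraries. Of all genes tested, 5.99% were called against DMSO at 3 h and 4.54% were called lower. The other comparisons called 0 members with edgeR, beside 0.197% and 1.05% of all genes against light alone and probe alone at 3 h, 0.218%, 0.109% and 0.415% at 6 h against light, probe and DMSO in turn, and 1.29%, 0.701% and 10.9% at 12 h. At an unadjusted p of at most 0.05, the comparisons with DMSO took 5, 2 and 4 members at 3, 6 and 12 h, beside 21.9%, 12.4% and 26.9% of all genes. Those with light alone took 0, 2 and 2 members, beside 14.8%, 11.7% and 12.9% of all genes. Those with probe alone took 3, 1 and 1, beside 18%, 6.56% and 11.1%. The log2 fold changes of the 10 genes lay between -0.33 and 0.42, and in 82 of the 90 comparisons the whole 95% interval lay within 0.5 of 0. A gene is named SDE (significantly differentially expressed) where 2 or 3 of the controls gave a call and the calls had 1 direction. By that rule 0 of the 10 were SDE at any time point with edgeR, beside 0.947%, 0.136% and 1.4% of all genes at 3, 6 and 12 h. At an unadjusted p of at most 0.05 the same rule took ZFAS1 (higher) and SNHG16 (lower) at 3 h, SNHG29 (higher) and SNHG1 (lower) at 6 h and SNHG29 (higher) at 12 h, beside 15.8%, 5.22% and 12.2% of all genes. DESeq2 made SNHG16 SDE at 3 h and no other member at any time, beside 3.81%, 0.483% and 2.8% of all genes, and the deposited factors of unwanted variation (RUV) as covariates gave 1 member at each time point: SNHG16 lower at 3 h, SNHG1 lower at 6 h and SNHG29 higher at 12 h. With those covariates 14.4%, 2.34% and 8.95% of all genes were SDE.

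**Figure D2:**
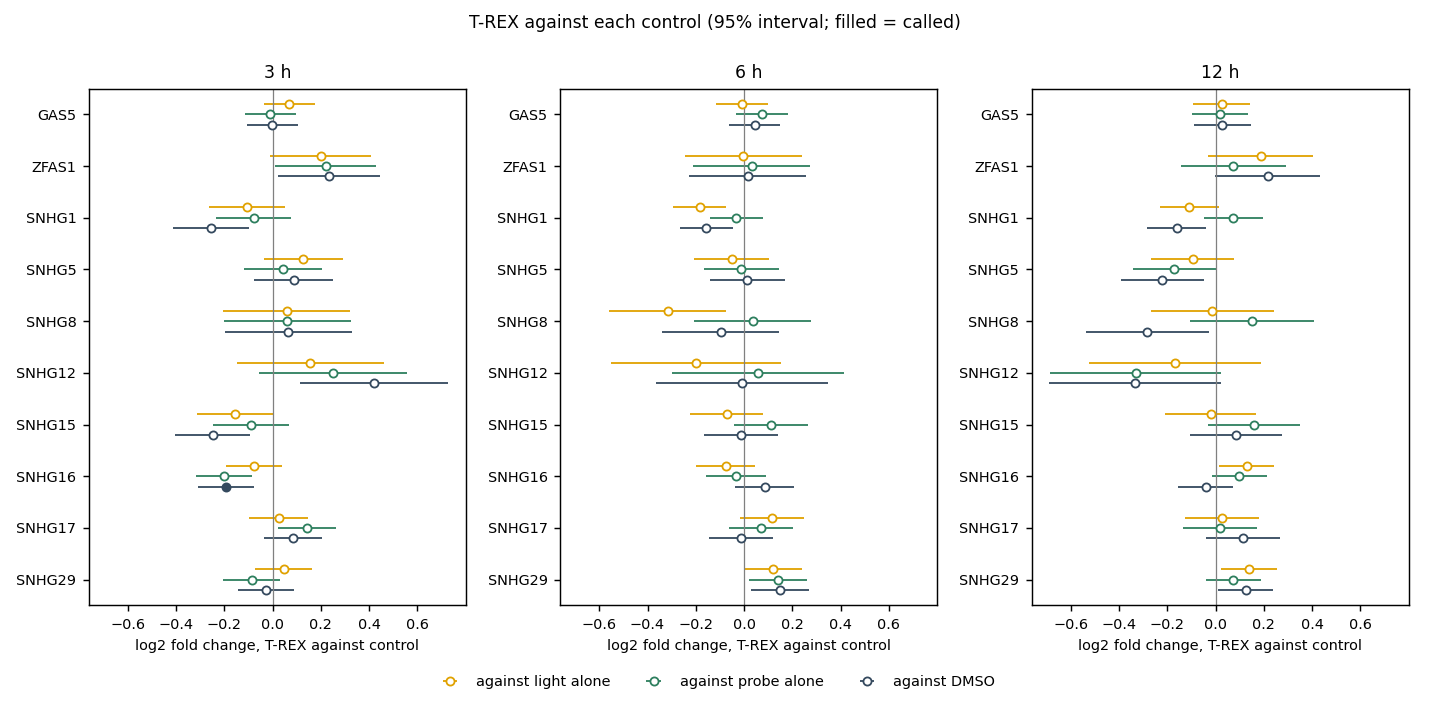
Log2 fold change of T-REX against each control (horizontal axis; colour gives the control) for the 10 host genes at 3, 6 and 12 h, with 95% intervals from edgeR. Filled points passed the adjusted threshold: the only filled point is SNHG16 against DMSO at 3 h, and the points of GAS5 stay between -0.01 and 0.07.

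SNHG16 at 3 h stood at 262, 309.7, 293 and 283.4 CPM in the 4 T-REX libraries and at 344.4, 326.7, 309.3 and 335.5 CPM in DMSO. The probe alone libraries held 364.2, 345.2, 319.8 and 304.9 CPM and light alone 291.9, 305.6, 301.3 and 311.2 CPM. The T-REX values thus met the DMSO range only at the highest T-REX library and overlapped those of light alone and probe alone. The log2 fold change was -0.19 ± 0.056 (SE) against DMSO (edgeR adjusted p = 0.0448), -0.20 ± 0.056 against probe alone (edgeR adjusted p = 0.075, 1.05% of all genes called) and -0.08 ± 0.056 against light alone (edgeR adjusted p = 0.58, 0.197% called). The call against DMSO was lost without any 1 of DMSO replicates 1, 2 and 4 and T-REX replicates 1 and 4 (log2 fold change -0.15 to -0.20 in these, edgeR adjusted p 0.0835 to 0.144), and in a fit of the 2 arms alone (edgeR adjusted p = 0.111). It was also lost without probe alone replicate 3 or any 1 light alone replicate, libraries that enter this comparison only through the shared estimate of the spread. Without T-REX replicate 1 the members called against DMSO were SNHG1, SNHG12 and SNHG15 instead. At 6 h the same gene differed by -0.08 to 0.08 from the 3 controls, and at 12 h by -0.04 to 0.13, with no call.

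SNHG1, host of SNORD25 to SNORD31, stood at 145.5, 134.4, 153 and 114.6 CPM in T-REX at 3 h and at 154.2, 167.5, 173.3 and 159.6 CPM in DMSO. Every T-REX library was below every DMSO library, as was the case for 11.3% of all genes in one direction or the other. The same held against DMSO at 6 h (7.87% of all genes) and 12 h (13.4%), and against light alone at 6 h (5.78%). In its other comparisons of T-REX with a control the ranges overlapped. Its log2 fold change against DMSO was -0.25 ± 0.075 at 3 h (edgeR adjusted p = 0.0504), -0.16 ± 0.053 at 6 h (edgeR adjusted p = 0.199) and -0.16 ± 0.059 at 12 h (edgeR adjusted p = 0.0786). Against light alone it was -0.11, -0.18 and -0.11, and against probe alone -0.08, -0.03 and 0.07, in the order of time. None of these 9 values passed the test. Probe alone, too, was below DMSO at 12 h, by a log2 fold change of -0.24 that was called.

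SNHG15, host of SNORA9, was also below DMSO in all 4 T-REX libraries at 3 h, with 49.9, 52.2, 44.9 and 43.5 CPM against 55.6, 55.6, 55.5 and 60.1 CPM. The log2 fold change of -0.25 ± 0.075 had an edgeR adjusted p of 0.0526, and at 12 h it was 0.08 ± 0.092. SNHG12, host of SNORA61 and SNORD99 among others, was above DMSO in all 4 T-REX libraries at 3 h. It had 5.66, 7.11, 7.93 and 6.71 CPM against 4.96, 4.81, 5.35 and 5.41 CPM. Ranges apart in either direction were present for 11.3% of all genes. Of the 10 host genes, 5 had a log2 fold change above 0 in this comparison. That of SNHG12 was 0.42 ± 0.15 at 3 h (edgeR adjusted p = 0.0936) and -0.33 ± 0.17 at 12 h (edgeR adjusted p = 0.213). This gene had the lowest counts of the 10 and the widest intervals.

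ZFAS1, which lies head to head with ZNFX1, had T-REX values of 19.2, 16.5, 16.2 and 16.2 CPM at 3 h against 13.1, 16.7, 13.5 and 14.8 CPM in DMSO, so the ranges overlapped. Every T-REX library was above every light alone library, of which the highest was 16.04 CPM. Ranges were apart in that comparison for 6.93% of all genes. The log2 fold change was 0.23 ± 0.10 against DMSO, 0.22 ± 0.10 against probe alone and 0.20 ± 0.10 against light alone (edgeR adjusted p of 0.176, 0.256 and 0.372). The highest T-REX library was replicate 1. GAS5 had the smallest differences of the set. Its 9 log2 fold changes lay between -0.01 and 0.07, and no bound of their 95% intervals was beyond -0.12 or 0.18. SNHG29, host of SNORD49 and SNORD65, was higher in T-REX than in the controls by 0.12, 0.14 and 0.15 at 6 h and by 0.14, 0.07 and 0.12 at 12 h (light alone, probe alone and DMSO in turn), with edgeR adjusted p of 0.152 or more. SNHG5 ranged from -0.22 to 0.13, SNHG8 from -0.32 to 0.15 and SNHG17 from -0.01 to 0.14 over their 9 comparisons, with the smallest edgeR adjusted p of the 3 genes at 0.0862. All T-REX libraries were above those of DMSO for GAS5 at 6 h (ranges apart for 7.87% of all genes). At 12 h they were above light alone for SNHG29 (12.6%) and above probe alone for SNHG8 (8.82%).

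The level of NCBP1 RNA, counted over plasmid and endogenous transcripts together, was not equal between arms. Its mean at 3 h was 75860 ± 15160 CPM in T-REX and 53850 ± 6155 CPM in DMSO (SD, n = 4), a log2 difference of 0.50 ± 0.12 (edgeR adjusted p = 0.029). At 12 h the difference from DMSO was 0.73 ± 0.13 in T-REX (edgeR adjusted p = 0.00252) and 0.77 ± 0.13 in probe alone (edgeR adjusted p = 0.00541), and at 6 h T-REX exceeded light alone by 0.80 ± 0.14 (edgeR adjusted p = 0.0214). At 6 h light alone was also below probe alone, by a log2 fold change of -0.99 ± 0.14 (edgeR adjusted p = 0.0144), and T-REX differed from probe alone by -0.19 with no call. From 3 to 12 h it fell by 0.40 in T-REX, 0.60 in light alone and 0.64 in DMSO on the log2 scale, while probe alone gave -0.13 with no call. The part of the NCBP1 level in the differences of host RNAs was not tested.

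The controls differed little from each other in host RNAs. Over the 3 pairs of controls and 3 time points, 2 calls were made with edgeR, both in probe alone against DMSO at 12 h, where 5.11% of all genes were called and 3.37% were lower. In the other pairs 0 members were called with edgeR, beside 0.00681% of all genes for light alone against DMSO at 3 and at 6 h and 0.0136% at 12 h, 0.00681% and 0.0272% for probe alone against DMSO at 3 and 6 h, and 0.232%, 0.0613% and 0.415% for light alone against probe alone at 3, 6 and 12 h. SNHG1 stood at 127.5, 132.4, 119.8 and 137.6 CPM in probe alone and at 154.3, 148.3, 164.8 and 142.4 CPM in DMSO, with no overlap (log2 fold change -0.24 ± 0.060, edgeR adjusted p = 0.023). Of all genes, 9.87% had no overlap in this comparison. SNHG8 stood at 23.2, 22.7, 23.6 and 20.8 CPM in probe alone and at 30.3, 30.5, 40.4 and 21.1 CPM in DMSO (log2 fold change -0.43 ± 0.12, edgeR adjusted p = 0.0432). The DMSO libraries of SNHG8 were widely spread, and replicate 3 was highest and replicate 4 lowest. Without DMSO replicate 3 the log2 fold change of SNHG8 was -0.27 (edgeR adjusted p = 0.14), and without probe alone replicate 1 or 3 that of SNHG1 lost its call (edgeR adjusted p of 0.0641 and 0.084). The call of SNHG8 was also lost without DMSO replicate 2 or without any 1 probe alone replicate (edgeR adjusted p 0.0775 to 0.108), and both calls were lost in a fit of the 2 arms alone (edgeR adjusted p of 0.135 for SNHG1 and 0.194 for SNHG8).

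Between 3 and 12 h the RNA of GAS5, ZFAS1, SNHG16 and SNHG17 fell in all 4 arms, that of SNHG8 and SNHG29 passed the test in no arm, and the other 4 passed in some arms, each time downwards. In T-REX 6 of the 10 genes fell (41.7% of all genes were called, 20.6% lower), in light alone 7 (39.4%, 19% lower), in probe alone 7 (42.3%, 21% lower) and in DMSO 5 (38.8%, 18.4% lower). The median log2 fold change of the 10 genes was -0.24, -0.27, -0.27 and -0.24 for T-REX, light, probe and DMSO, beside medians of -0.01, -0.01, 0.01 and 0.01 over all genes. Without light alone replicate 1 of 12 h, 4 members were called in light alone. Time and any batch of the time point cannot be told apart. The contrasts in light alone and probe alone were chosen after those in T-REX and DMSO had been seen.

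**Figure D3:**
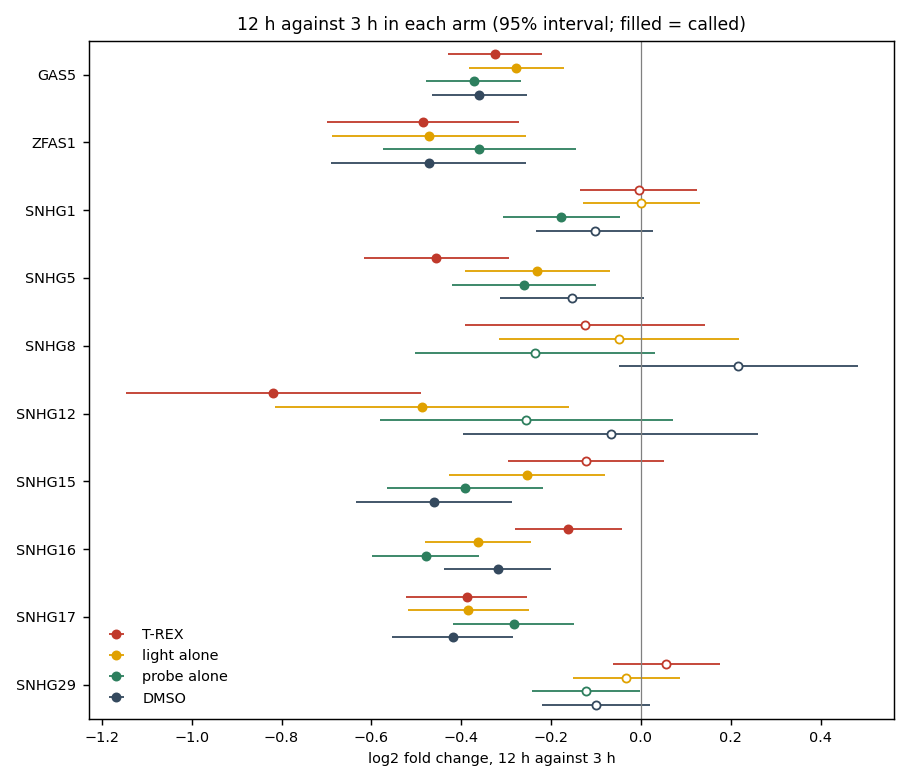
Log2 fold change at 12 h against 3 h (horizontal axis) of the 10 host genes in each arm (colour), with 95% intervals from edgeR; filled points passed the adjusted threshold. All filled points lie below 0, and only GAS5, ZFAS1, SNHG16 and SNHG17 are filled in all 4 arms.

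GAS5 in DMSO went from 116.9, 123.8, 106.2 and 123.5 CPM at 3 h to 100.4, 100.3, 98.8 and 99.5 CPM at 6 h and 89.0, 94.3, 96.6 and 86.8 CPM at 12 h. In this arm all values at 6 h and at 12 h were below those at 3 h. Ranges were apart for 20.2% and 30.7% of all genes at 6 and 12 h against 3 h. Its log2 fold change at 12 h was -0.36 ± 0.052 in DMSO (edgeR adjusted p = 2.74e-07) and -0.32 ± 0.052 in T-REX (edgeR adjusted p = 1.76e-06), and it was already -0.24 and -0.19 at 6 h, both called. GAS5 is named for its rise in growth-arrested cells.

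SNHG17, host of the SNORA71 family, went in T-REX from 75.1, 74.8, 73.0 and 77.9 CPM at 3 h to 61.3, 55.4, 54.1 and 58.9 CPM at 12 h, with no overlap (log2 fold change -0.39 ± 0.067, edgeR adjusted p = 5.85e-06), and in DMSO it differed by -0.42 ± 0.067 (edgeR adjusted p = 1.7e-06). Of all genes, 33.5% had no overlap between these times in T-REX. ZFAS1 differed by -0.49 ± 0.11 in T-REX (edgeR adjusted p = 0.000223) and -0.47 ± 0.11 in DMSO (edgeR adjusted p = 0.000409), from means of 17.0 and 14.5 CPM at 3 h to 12.2 and 10.5 CPM at 12 h.

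SNHG16 fell by 0.16 on the log2 scale in T-REX (edgeR adjusted p = 0.024), by 0.36 in light alone, by 0.48 in probe alone and by 0.32 in DMSO (edgeR adjusted p = 2e-05). It started lower in T-REX at 3 h and ended near the other arms at 12 h, with means of 256.7, 235.2, 239.3 and 263.7 CPM for T-REX, for light alone, for probe alone and for DMSO. The difference between T-REX and probe alone thereby moved by 0.32 ± 0.083 between 3 and 12 h (edgeR adjusted p of this interaction = 0.104). The T-REX call was lost without T-REX replicate 2 or 3 of 3 h or replicate 3 or 4 of 12 h (edgeR adjusted p 0.0579 to 0.123).

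SNHG12 fell in T-REX from 5.66, 7.11, 7.93 and 6.71 CPM at 3 h to 3.40, 3.91, 4.65 and 3.64 CPM at 12 h. These did not overlap, beside 33.5% of all genes, and the log2 fold change was -0.82 ± 0.16 (edgeR adjusted p = 6.38e-05). In light alone it was -0.49 ± 0.16 (edgeR adjusted p = 0.0144), in probe alone -0.25 ± 0.16 and in DMSO -0.07 ± 0.16, the latter 2 without a call. SNHG5, host of SNORD50A and SNORD50B, was called in T-REX (-0.46 ± 0.080, edgeR adjusted p = 8.27e-06), light alone and probe alone, while its log2 fold change in DMSO was -0.15 ± 0.080 (edgeR adjusted p = 0.125). SNHG15 showed the other order, with -0.46 ± 0.086 in DMSO (edgeR adjusted p = 2.68e-05), -0.39 in probe alone and -0.25 in light alone, each called, and -0.12 ± 0.086 in T-REX (edgeR adjusted p = 0.259). SNHG1 was called in probe alone (-0.18 ± 0.065, edgeR adjusted p = 0.0242).

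Whether these time courses differ between T-REX and a control was tested by the interaction, and 0 of the 10 genes were called against any of the 3 controls with edgeR, beside 0.0204%, 0.0681% and 0.00681% of all genes for light, probe and DMSO. With p unadjusted and at most 0.05 the test took SNHG16 against light alone, SNHG12, SNHG15, SNHG16 and SNHG29 against probe alone, and SNHG5, SNHG12 and SNHG15 against DMSO, beside 7.37%, 13.4% and 9.7% of all genes. The difference of SNHG12 from DMSO moved by -0.75 ± 0.23 (edgeR adjusted p = 0.198), that of SNHG15 by 0.34 ± 0.12 (edgeR adjusted p = 0.308) and that of SNHG5 by -0.30 ± 0.11 (edgeR adjusted p = 0.33). DESeq2 called 1 of the 10, SNHG16 against probe alone, where it called 0.449% of all genes.

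At 6 h fewer genes had passed the test against 3 h. T-REX gave 4 of 10 (GAS5, ZFAS1, SNHG12 and SNHG17; 23.3% of all genes called, 9.8% lower), light alone 1 (SNHG17; 25.3%, 11% lower), probe alone 3 (GAS5, SNHG16 and SNHG29; 21.5%, 10.5% lower) and DMSO 2 (GAS5 and SNHG16; 16%, 6.97% lower), all of them lower. SNHG16 in DMSO had reached its 12 h level by 6 h, with means of 329, 250.3 and 263.7 CPM at 3, 6 and 12 h. In T-REX the call of SNHG12 was lost without replicate 2 or 3 of 3 h or replicate 2, 3 or 4 of 6 h, and that of SNHG17 without replicate 3 of 6 h (edgeR adjusted p up to 0.104 and 0.0638).

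For 4 of the 10 genes GENCODE 29 places the start of a gene on the opposite strand within 2000 bases: ZBTB37 for GAS5, ZNFX1 for ZFAS1, SLC3A2 for SNHG1 and a gene known by its identifier only (ENSG00000267546) for SNHG16. The strand setting of the counting is not given in the sources used here, so reads of overlapping parts cannot be assigned with certainty. Between 3 and 12 h the neighbours did not fall with the hosts in 3 of these 4 pairs. ZBTB37, a zinc finger gene, rose in T-REX (0.21 ± 0.057, edgeR adjusted p = 0.00216), probe alone (0.17 ± 0.057, edgeR adjusted p = 0.0136) and DMSO (0.19 ± 0.057, edgeR adjusted p = 0.00555), the arms in which GAS5 fell by 0.32, 0.37 and 0.36. ZNFX1, a helicase of antiviral defence, lay between -0.01 and 0.10 in the 4 arms with no call, while ZFAS1 fell in each. ENSG00000267546 rose by 0.70 to 1.01 in all 4 arms from a low level (means of 1.36 to 1.91 CPM at 3 h), while SNHG16 fell in each. SLC3A2, the heavy chain of amino acid transporters, was the exception: it fell by 0.33 in T-REX, 0.43 in light alone and 0.32 in DMSO, each called, while SNHG1 was not called in these arms. In probe alone the order was the other way round, with SNHG1 called (-0.18) and SLC3A2 not (-0.14, edgeR adjusted p = 0.259), so the pair was called together in no arm.

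**Figure D4:**
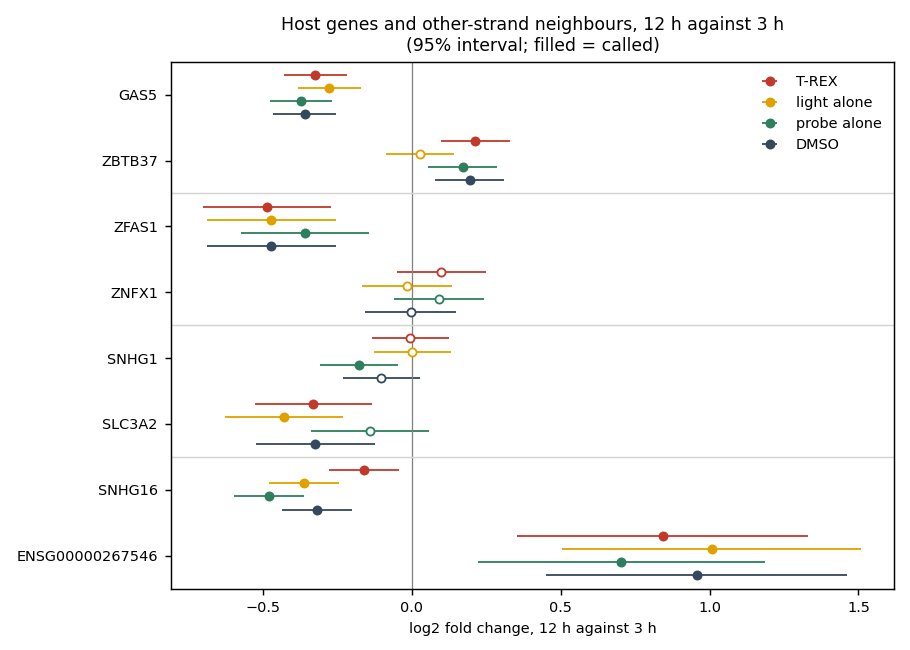
Log2 fold change at 12 h against 3 h (horizontal axis) in each arm (colour) for the 4 host genes with an opposite-strand neighbour and for that neighbour, grouped in pairs, with 95% intervals from edgeR; filled points passed the adjusted threshold. GAS5, ZFAS1 and SNHG16 lie below 0 where their neighbours lie near or above it, and SLC3A2 lies below SNHG1 in T-REX, light alone and DMSO.

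The SNHG1 and SLC3A2 pair also stood apart between arms. SLC3A2 at 12 h had a mean of 82.9 ± 3.99 CPM in T-REX and 64.0 ± 10.7 CPM in DMSO (log2 fold change 0.37 ± 0.081, edgeR adjusted p = 0.00478), where SNHG1 had 136.4 ± 5.02 and 152.5 ± 9.55 CPM. The starts of the 2 genes are 188 bases apart, and T-REX was above DMSO in one and had a negative, uncalled value in the other.

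Other genes of the same pathways were read from lists. Of 11 other noncoding snoRNA hosts in the tables, 1 was called in T-REX against a control: SNHG4 was lower in T-REX than in DMSO at 12 h (-0.26, edgeR adjusted p = 0.0373) and also lower in probe alone than in DMSO (-0.32, edgeR adjusted p = 0.0214). Of all genes, 10.9% and 5.11% were called in these comparisons. Between 3 and 12 h in T-REX 3 of the 11 fell, beside 20.6% of all genes called lower. They were SNHG3, SNHG4 and EPB41L4A-AS1. Each of them was also called lower in the other 3 arms (log2 fold changes of -0.24 to -0.54). Of the 11, DMSO had 3 called lower (18.4% of all genes), probe alone 4 (21%) and light alone 5 (19%). DANCR rose in DMSO (0.30, edgeR adjusted p = 0.0339), where 38.8% of all genes were called. These 4 genes were named after their values had been seen.

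Of 42 protein-coding snoRNA hosts 3 were SDE, all lower: HSPA8, a chaperone, at 3 and 12 h, and IPO7, an import receptor, and RACK1, a ribosome-bound scaffold, at 3 h, beside 0.947% and 1.4% of all genes SDE at 3 and 12 h. At 3 h HSPA8 was also lower in light alone than in probe alone (-0.29 ± 0.060, edgeR adjusted p = 0.0436), and T-REX differed from light alone by -0.02. HSPA8 differed at 12 h by -0.31 ± 0.056 from probe alone (edgeR adjusted p = 0.00667) and by -0.29 ± 0.056 from DMSO (edgeR adjusted p = 0.00219). At 3 h T-REX differed from DMSO by -0.30 for IPO7 and -0.28 for RACK1, and from light alone by -0.10 and -0.12 with no call. Light alone differed from DMSO by -0.20 and -0.17, also uncalled. At 12 h IPO7 was called lower than in DMSO in T-REX (-0.20) and in probe alone (-0.25). RACK1 gave 0.14 in T-REX against DMSO at 12 h, with no call. In that list 17 genes fell and 2 rose between 3 and 12 h in T-REX, and 19 fell and 1 rose in DMSO, where 20.6% and 18.4% of all genes were called lower. Of the 19 snoRNP proteins and assembly factors, 14 fell in T-REX from 3 to 12 h, 9 in light alone, 13 in probe alone and 9 in DMSO, where 20.6%, 19%, 21% and 18.4% of all genes were called lower. At 12 h 5 of the 19 were called lower in T-REX than in DMSO, beside 10.9% of all genes called. Against light alone and probe alone at 12 h 0 of them were called, beside 1.29% and 0.701% of all genes.

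Of 20 factors of nonsense-mediated decay and the exon junction complex 1 was SDE (1.4% of all genes at 12 h): RBM8A, a core subunit of that complex, was lower at 12 h (-0.23 ± 0.048 from light alone, edgeR adjusted p = 0.011, and -0.23 ± 0.048 from DMSO, edgeR adjusted p = 0.00336). Between 3 and 12 h 12 of the 20 fell and 2 rose in T-REX, and 11 fell in DMSO, where 20.6% and 18.4% of all genes were called lower. Of 17 protein-coding transcripts known to be sensitive to that decay 3 were SDE and went in both directions. Of all genes, 0.947% and 1.4% were SDE at 3 and 12 h. ATF4, the transcription factor of the integrated stress response, was higher at 12 h (0.28 ± 0.053 from DMSO, edgeR adjusted p = 0.00129). PPP1R15A, its target that restores translation, was higher at 3 h (0.38 ± 0.073 from probe alone, edgeR adjusted p = 0.0147). Light alone exceeded probe alone by a like 0.39 ± 0.072 (edgeR adjusted p = 0.0267), and T-REX differed from light alone by -0.01. SRSF2, a splicing factor that controls its own RNA through decay, was lower at 12 h (-0.47 ± 0.066 from DMSO, edgeR adjusted p = 8.63e-05). Probe alone was also below DMSO (-0.41 ± 0.066, edgeR adjusted p = 0.00136), and T-REX differed from probe alone by -0.06.

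The 10 genes did not move as 1 unit from library to library. Over the 48 libraries the median of the 45 pairwise correlations of their log2 CPM was 0.39 (range -0.246 to 0.82), and that of their deviations from the group mean was 0.0848 (range -0.645 to 0.46). Against the mean of the other 9, GAS5 had the highest correlation (0.896), then SNHG16 (0.764) and SNHG5 (0.737), and SNHG8 the lowest (0.141). The 5 genes outside the set whose log2 CPM followed the mean of the 10 most closely over the 48 libraries were DKC1 (r = 0.946), DDX18 (0.943), OAT (0.939), TRIM27 (0.932) and GTPBP4 (0.93). These correlations are across libraries that share the 3 time points, and they describe the libraries only.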

How the data were processed

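RNA of 48 HEK293T libraries was sequenced from libraries made with stranded mRNA reagents, with depletion of rRNA in place of poly(A) selection. The authors deposited raw counts per gene, separately for 3, 6 and 12 h, log2 CPM made from them, and 2 RUV factors per library, a score given in the deposited sample descriptions. A further deposited table with RUV effects removed was not used. For trimming, alignment and quantification the study names cutadapt, TopHat and Cufflinks. Which program counted the reads, its strand setting and the genome build are not given in the sources used here, and no column of another series was present (0). Symbols and exon lengths are from GENCODE 29.

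Counts were fitted in R 4.3.3 with edgeR 4.0.16 (TMM factors 0.954 to 1.06, filterByExpr, estimateDisp, robust glmQLFit, quasi-likelihood F-test), the 16 libraries of a time point together and all 48 for time and interaction contrasts. p-values were adjusted by Benjamini-Hochberg over all genes in each comparison and called at 0.05. Values are CPM with TMM factors over 48 libraries, ± SD over 4 replicates, or ± SE for log2 fold changes. The fit was tested on simulated data. Alternatives were DESeq2 1.42.0, limma 3.58.1 on log2 CPM, other normalisation and filters, RUV covariates, a replicate block, the 2 arms alone and leaving out each library. All 10 members were named. Of the lists, SDE genes were named, and the nearest opposite-strand start within 2000 bases for each member. For same-numbered libraries, all 4 correlations of deviations were over 0.1 (0.102 to 0.474) only for T-REX and probe alone at 6 h. The labels give repeat numbers only, so pairing was not taken as established. The members and lists were chosen with earlier results of these data known. Other hosts named for their calls, NCBP1 and the time contrasts of light alone and probe alone were added after values had been seen.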

Additional observations from a re-analysis of the deposited data

Results flagged for a closer look

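In groups of 4 libraries, a library was marked where its gap to the nearest value took more of the group's range than Dixon's 95% limit for 4 values, and chance marks about 1 in 20 groups. Of 120 groups (10 genes, 12 arm and time groups), 7 were marked. ZFAS1 in T-REX at 3 h was highest in replicate 1 (19.2 CPM, next 16.5). SNHG5 in probe alone at 3 h was highest in replicate 3 (43.8 CPM, next 40.7). SNHG8 was highest in T-REX at 3 h in replicate 3 (32.9 CPM, next 26.3), lowest in light alone at 12 h in replicate 4 (22.2 CPM, next 26.3) and lowest in probe alone at 3 h in replicate 4 (20.6 CPM, next 28.1). SNHG15 was highest in light alone at 3 h in replicate 1 (63.3 CPM, next 50.8) and in DMSO at 3 h in replicate 4 (60.1 CPM, next 55.6). Of the 7, 6 are at 3 h.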

How the results depend on the processing

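The replicate numbers were checked for pairing: of 24 pairs of same-numbered libraries per time point, 12, 11 and 8 had a correlation of deviations over 0.1 at 3, 6 and 12 h (range -0.637 to 0.573). The numbers met the limit in all 4 pairs for T-REX and probe alone at 6 h, where the block also gave 0 members called, and in no other comparison of arms. With the replicate block, T-REX against DMSO at 3 h gave 3 members (SNHG1, SNHG15 and SNHG16, against 1 without the block). The interaction with probe alone gave 1 (SNHG16, against 0 without the block). With the block 6.95% and 0.163% of all genes were called in these. The other 30 counts stayed within 1.5 times.

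No called member reversed. Members called in T-REX against DMSO at 3 h numbered 3 with DESeq2, 2 with RLE factors, 4 with RUV covariates and 0 with the 2 arms alone. These fits called 8.17%, 6.22%, 20.8% and 1.27% of all genes in turn. DESeq2 gave 1 in T-REX against probe alone at 3 h (4.24% of all genes), 1 in the interaction with probe alone (0.449%) and 1 SDE member at 3 h (3.81%). In probe alone against DMSO at 12 h (2 in the report), limma gave 1 (4.96% of all genes) and the 2 arms alone 0 (0.0953%). At 12 h the 2 arms alone gave 2 in T-REX against light alone (7.67%) and 1 in light alone against probe alone (4.83%). RUV covariates raised calls over all genes as well. At 3 h they gave 2 in T-REX against probe alone (17.4% of all genes) and 1 in light alone against probe alone (14.8%). At 6 h they gave 2 in T-REX against light alone (8.19%) and 2 in T-REX against DMSO (7.14%). They also gave 1 in light alone against DMSO (12.2%) and 2 in light alone against probe alone (3.06%). In these comparisons at 12 h they gave 2 (8.62%), 4 (26.7%), 2 (6.96%) and 1 (8.38%). They gave 1 SDE member at each time (14.4%, 2.34% and 8.95%). The cause was not tested.

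Leaving out 1 library at a time gave 0 to 1 members in T-REX against probe alone at 3 h, 0 to 3 in T-REX against DMSO at 3 h, 0 to 2 in T-REX against light alone at 6 h (2 without light alone replicate 4), 0 to 3 in T-REX against DMSO and 0 to 1 in light alone against DMSO at 12 h (3 and 1 without DMSO replicate 4), 0 to 2 in probe alone against DMSO and 0 to 1 in light alone against probe alone at 12 h (1 without DMSO replicate 3), 2 to 5 in T-REX at 6 h against 3 h (2 without replicate 3 of 6 h), 4 to 7 in light alone at 12 h against 3 h, and 0 to 1 SDE members at 3 h (1 without probe alone replicate 4 or T-REX replicate 3). The share of all genes called was not kept for the fits that left out 1 library. The filter changed no count. limma on the deposited log2 CPM was not run across times, since each time point was normalised separately.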

Other observations

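SNORA71B, a box H/ACA snoRNA in an intron of SNHG17 and the only listed snoRNA of these hosts in the count tables, had log2 fold changes of T-REX against the controls between -0.23 and 0.08 with no call, and fell in probe alone between 3 and 12 h by 0.46 on the log2 scale, where 42.3% of all genes were called.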
